A study of Mus musculus with 4 samples.

Results

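Macrophage nuclei that carried MHC class II transcripts were taken from single-nucleus RNA sequencing of whole mouse hearts, and they numbered 159 of 27048 nuclei that passed the filter, out of 39696 deposited barcodes. A barcode passed with at least 500 unique molecular identifiers (UMIs, each counting 1 captured transcript), at least 300 genes, under 5% mitochondrial UMIs, and under 3% of UMIs from the cardiomyocyte genes Ttn, Ryr2 and Myh6. A nucleus was then a member when it held 3 or more UMIs summed over the macrophage genes F13a1, Mrc1, Adgre1, Aoah, Tbxas1 and C1qa, 2 or more over the class II genes H2-Aa, H2-Ab1, H2-Eb1 and Cd74, and 1 or fewer over Pdgfra, Cdh5, Pdgfrb, Pax5 and Themis, which mark other cell types. The members were thus chosen by the measured UMIs of these 15 genes and of the genes behind the filter. The 15 are given as a description, and no test of them is read as a result. The nearest other nuclei were 1391 class II-low macrophage nuclei, which met the macrophage and other-type conditions but held at most 1 class II UMI.

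The study asked whether a heart injury of the father bears on the heart of the offspring, and all hearts here came from offspring that had themselves been injured. The animals were male wild-type (WT) C57BL/6J mice injured at day 1 after birth, and each heart was taken 21 days after injury. Fathers had been injured for 2 libraries and had not for the other 2, with 1 whole snap-frozen heart in each library. Blood cells that bound a Ter119 antibody were excluded by sorting, which left lymphocyte nuclei in the data. The nuclei went into a 3′ droplet kit. Which father or litter each heart came from is not stated in any source used, so hearts of 1 group may share a father, and p-values measure only the spread between these hearts. Throughout, values in 4 libraries are listed in the order injured-father 1, injured-father 2, uninjured-father 1, uninjured-father 2.

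Depth differed between the libraries, and so did the number of members. The nuclei that passed numbered between 5386 and 7643 per library and held 65169036 UMIs in all, with a median per nucleus of 1562 to 2220 UMIs. Members numbered 39, 77, 23 and 20, and their summed UMIs were 102759, 190908, 47231 and 43026, so injured-father library 2 supplied the most nuclei and the uninjured-father libraries the least precise values. Members held a median of 2074 UMIs, and their library medians (1651 to 2244.5) lay above those of class II-low nuclei of the same library (1411.5 to 1843.5) each time. Between 23 and 33 barcode sequences were shared by any pair of libraries, at most 0.403% of the smaller one, and none of them was a member in both.

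MHC class II molecules present peptides from engulfed material to CD4 T cells, and macrophages, dendritic cells and B lymphocytes are the main cells that carry them. The heterodimers are assembled with the invariant chain, which Cd74 encodes, and loaded with peptide in endosomes by the H2-DM proteins after proteases such as cathepsin S have trimmed the chain. Transcription of the pathway depends on the coactivator CIITA, which binds no DNA itself but docks on factors bound to the conserved X and Y boxes of class II promoters. In the heart, class II macrophages are known to include cells with the monocyte chemokine receptor CCR2, while long-lived resident macrophages often carry LYVE1, TIMD4, FOLR2 and CD163 and self-renew in place.

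Several promoters of this pathway, though not all, hold letters of those boxes. As examples, 3 are shown from genes that were measured in these nuclei and lie in the class II region of chromosome 17. Sequences are from RefSeq on the GRCm38.p6 build, 60 bases each, 5′ to 3′ on the strand of the gene, with capitals on the Y box letters TGATTGG and, where found, the X box letters AACNNATG.
H2-Aa (α chain), chr17:34287859-34287918, minus strand: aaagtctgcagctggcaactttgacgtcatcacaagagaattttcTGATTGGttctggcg
H2-Eb1 (β chain), chr17:34305761-34305820, plus strand: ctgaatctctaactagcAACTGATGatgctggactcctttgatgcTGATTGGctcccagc
H2-DMb1 (peptide loading), chr17:34153083-34153142, plus strand: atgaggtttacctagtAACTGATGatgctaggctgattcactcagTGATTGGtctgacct
The Y box began 50, 61 and 63 bases before the start of H2-Aa, H2-Eb1 and H2-DMb1. The X box letters began 28 bases before the Y box in H2-Eb1 and 29 bases before it in H2-DMb1. H2-Aa has no match to these X letters in the window. The Y letters also stand in the promoters of H2-Eb2, H2-DMb2, H2-Oa and H2-Ob, and the X letters in those of H2-Eb2, H2-DMb2 and H2-Ob. H2-DMa was measured as well, and its promoter holds neither the Y nor the X letters. H2-Ab1 and Ciita are named only. Of 32851 promoters of the same length in the table, 7.82% hold the Y letters and 8.86% the X letters on either strand, and 17 (0.0517%) hold the X letters within 60 bases before the Y letters on the strand of the gene. The motif letters were chosen with these sequences in view, and a match is a description of letters, not of binding.

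Within the members, the class II genes that chose them were unevenly detected per nucleus. Cd74 gave a UMI in 147 of 159 members, H2-Ab1 in 77, H2-Aa in 71 and H2-Eb1 in 68. A single one of the 4 genes was seen in 37 members, 2 genes in 62, 3 in 38 and all 4 in 22. Members held a median of 3 class II UMIs and a range of 2 to 19. Of the 159, 45 had exactly 2, 36 had 3, 78 had 4 or more and 11 had 10 or more. A large part of them thus lay close to the threshold. Just outside it stood 116 class II-low nuclei with exactly 1 class II UMI, and the other 1275 had none. A gate at 2 UMIs in shallow nuclei sorts nuclei by captured transcripts, and a class II-low nucleus may have carried class II RNA that was not captured.

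Levels of the rule genes are given in CPM, a gene's UMIs per 1000000 UMIs of all members of a library. Cd74 stood at 798, 1006, 1164 and 1278 CPM in the members. H2-Ab1, the β chain of the A heterodimer, stood at 234, 341, 339 and 279 CPM. H2-Aa, its α chain, stood at 282, 241, 339 and 325 CPM, and H2-Eb1 at 321, 236, 551 and 256 CPM. Over the class II-low nuclei the mean of the 4 libraries was 27.9 CPM for Cd74 and between 2.67 and 5.76 CPM for the other 3, which the rule itself sets. In the 853 B lymphocyte nuclei of these hearts, a class the members do not include, Cd74 averaged 593 CPM, H2-Aa 140.9 CPM, H2-Ab1 123.5 CPM and H2-Eb1 108.0 CPM, and in 1428 fibroblast nuclei Cd74 averaged 4.50 CPM.

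The macrophage genes of the rule did not all follow one pattern. Adgre1, which encodes the F4/80 antigen, gave a UMI in 123 members and stood at 769, 859, 529 and 860 CPM, beside a class II-low mean of 654 CPM. Mrc1, the mannose receptor CD206, stood at 983, 1257, 1080 and 1487 CPM beside 1863 CPM. F13a1, the A subunit of coagulation factor XIII and a marker of tissue macrophages, gave a UMI in 78 members. Its level was 934, 801, 2541 and 1255 CPM beside a class II-low mean of 3605 CPM, so every library had less F13a1 in the members. Aoah, Tbxas1 and C1qa had member ranges of 467 to 699, 581 to 781 and 204 to 558 CPM beside class II-low means of 738, 630 and 481 CPM. At the macrophage threshold, 15 members held exactly 3 macrophage UMIs, and 21 nuclei that met the other conditions held 2 and stayed outside.

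The label was checked on macrophage genes that the rule did not use. Pooled over libraries, Csf1r, the receptor for the macrophage growth factor CSF1, gave a UMI in 50.3% of members and in 50.3% of class II-low nuclei. The share was 2.11% in B lymphocyte nuclei and 1.12% in fibroblast nuclei, whose median depth was greater (2539 to 3677 UMIs by library). By library, Csf1r shares were 33.3%, 62.3%, 52.2% and 35.0% of members and 44.6%, 54.9%, 46.6% and 55.9% of class II-low nuclei, so single libraries went either way. Thinned to 1000 UMIs, with the classes of the full counts, the pooled shares were 31.8% and 34.4%. Mertk, a receptor for apoptotic cells, gave a UMI in 67.3% of members and in 16.2% of fibroblast nuclei. Dendritic cell genes were mixed. Flt3 gave 2, 0, 0 and 2 UMIs over all members of the libraries, Clec9a 0, 0, 0 and 3, and Xcr1 1, 0, 0 and 0. Itgax, the integrin CD11c, gave a UMI in 3.77% of members and 0.431% of class II-low nuclei, Siglech in 3.77% and 1.65%, and Zbtb46 in 17.0% and 15.3%, beside 20.2% of fibroblast nuclei. The 18 dendritic cell markers summed to between 1703 and 2138 CPM in the members and between 2111 and 2397 CPM in class II-low nuclei. The same sum was 2478 to 3022 CPM in B lymphocyte nuclei and 2525 to 2690 CPM in fibroblast nuclei, so it does not measure dendritic identity. Ccr7, Cd209a and Il4i1 were at 0, which allows a share of members with a UMI of up to 1.89%. The defining B lymphocyte gene Pax5, which the rule limits to 1 UMI, gave a UMI in 3 members. Of 159 members, 126 lacked any UMI of 7 dendritic genes and 12 held 2 or more, those genes being Flt3, Zbtb46, Xcr1, Clec9a, Cd209a, Ccr7 and Siglech.

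Members took a larger part of the macrophage nuclei in each of the injured-father hearts than in the hearts of the other group, but 2 hearts per group cannot give a p below 0.3333. They were 9.97%, 17.4%, 5.87% and 6.17% of the macrophage nuclei, with 95% Wilson intervals of 7.38 to 13.3%, 14.1 to 21.2%, 3.94 to 8.65% and 4.03 to 9.34%, which cover counting error only. The means were 13.7% ± 5.24 (SD, n = 2) and 6.02% ± 0.216 (SD, n = 2), a ratio of 2.27 and a difference of 7.66 percentage points (exact permutation test over libraries, two-sided, p = 0.3333). Without injured-father library 2 the difference was 3.95 points and the ratio 1.66. As a share of all nuclei that passed, members were 0.564%, 1.01%, 0.324% and 0.371%, a difference of 0.438 points with the same p, and of 0.216 points without injured-father library 2.

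All macrophage nuclei together, members and class II-low, were 5.65%, 5.80%, 5.52% and 6.02% of the nuclei that passed, so the total did not separate the fathers (difference −0.0463 points, exact permutation p = 1). A fixed gate passes more nuclei in a deeper library, and injured-father library 2 was the deepest. For a check at equal depth, nuclei were thinned to 1000 UMIs, which left out 3317 shallower nuclei, 8 members and 217 class II-low nuclei among them. The rule was applied again to the thinned counts, and 20, 36, 10 and 9 nuclei were then members. A member by its full counts could thus fall among the thinned class II-low nuclei. Members were then 6.33%, 9.16%, 3.096% and 3.36% of the macrophage nuclei, a difference of 4.52 points, and the groups still did not overlap. A share of nuclei cannot tell more class II macrophages from more class II RNA per macrophage.

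**Figure D1:**
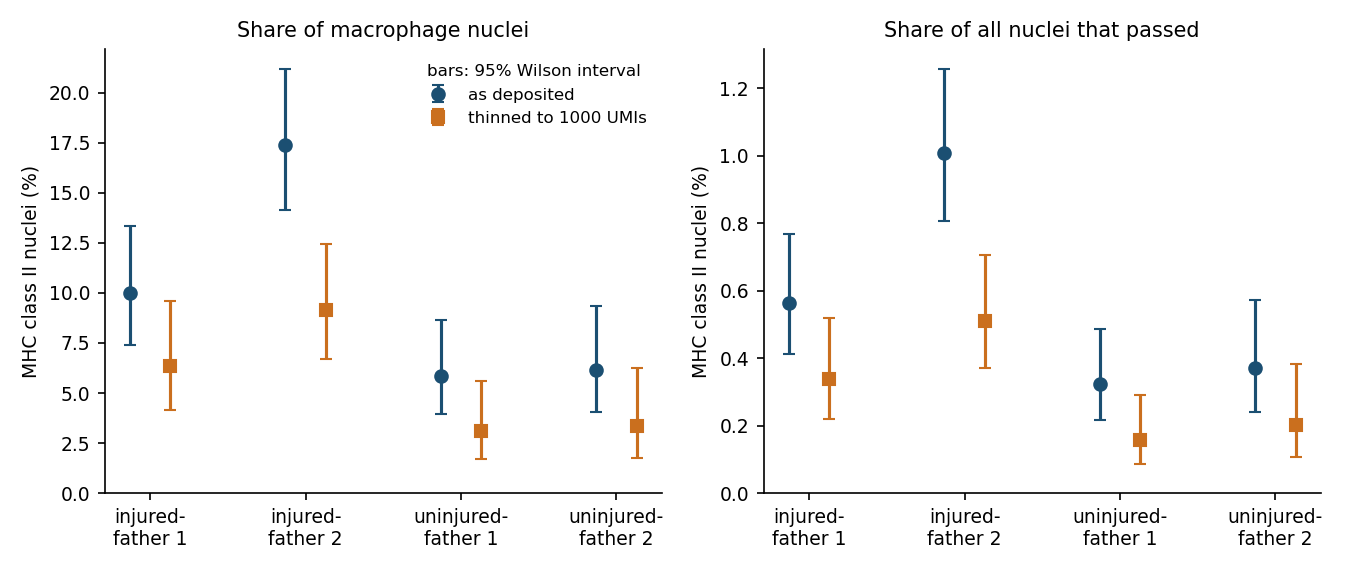
Share of members among macrophage nuclei (left, percent) and among all nuclei that passed (right, percent) in each library, as deposited (circles) and after thinning to 1000 UMIs (squares), with 95% Wilson intervals. Both injured-father libraries, at 9.97% and 17.4% of macrophage nuclei, lie above both uninjured-father libraries, at 5.87% and 6.17%, and thinning lowers every value.

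Beyond the genes that chose them, the members differed from class II-low nuclei of the same hearts in 134 genes. The class II coactivator gene Ciita, the chemokine receptor gene Ccr2 and several adhesion and signalling genes were higher, and genes that mark resident and scavenging macrophages were lower. With edgeR's quasi-likelihood test on sums per library and class, the library as a block and Benjamini-Hochberg adjustment over 7209 genes outside the rule, 66 genes (0.916%) were higher and 68 (0.943%) lower at an adjusted p under 0.05. The median log2 fold change over all genes tested was −0.03. Leaving out injured-father library 2 reduced the 134 calls to 29, leaving out injured-father library 1 to 61 and leaving out uninjured-father library 2 to 71. DESeq2 made 39 calls on the same sums, 27 higher and 12 lower. Of 45 called genes named below, 17 kept their direction in DESeq2 without passing, and they are not marked one by one. After thinning to 1000 UMIs, with both classes chosen again on the thinned counts, 22 genes were called, of which 14 were among the 134. Of the called genes named below, 42 were tested after thinning, and 34 of them kept their direction without passing. The 8 that passed were Ciita, Ccr2, Alcam, Colec12, Mctp1, Plekhg5, Slc9a9 and Eln.

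Ciita carried the largest difference among the tested genes of the class II pathway. Its transcripts numbered 39, 56, 11 and 19 UMIs in the members and 14, 18, 9 and 3 in class II-low nuclei, although the latter held 2849263 UMIs in all and the members 383924. The levels were 337 ± 92.2 CPM (SD, n = 4) and 14.6 ± 7.36 CPM (SD, n = 4), and every member value lay above every class II-low value. The log2 fold change was 4.35 ± 0.32 (SE; edgeR quasi-likelihood test, Benjamini-Hochberg adjusted p = 1.4e-14), and no alternative ended the call. Ciita gave a UMI in 37.7% of members, 2.59% of class II-low nuclei, 26.03% of B lymphocyte nuclei and 1.26% of fibroblast nuclei. Thinned to 1000 UMIs, with the classes kept as chosen on the full counts, the shares were 26.5%, 1.36%, 19.0% and 0.352%. The gene lies at chr16:10480059-10528418 in the GENCODE M21 annotation of GRCm38, which serves here to identify it.

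Of 20 further genes of the class II pathway, 12 were tested, 2 were higher and none lower, with 9 of 12 estimates positive and a median log2 fold change of 0.79 beside −0.03 over all genes tested. The other call was Ctss, which encodes the invariant-chain protease cathepsin S, at 311, 346, 233 and 465 CPM in the members and 188, 178, 171 and 142 CPM in class II-low nuclei. Its log2 fold change was 0.93 ± 0.21 (SE; edgeR adjusted p = 0.00848, higher in 4 of 4 libraries). That call was lost without injured-father library 1 (adjusted p = 0.052), injured-father library 2 (0.247) or uninjured-father library 2 (0.126). H2-DMb1, a subunit of the peptide-loading H2-DM protein whose promoter is printed above, gave 1, 8, 4 and 7 UMIs in the members and 9, 11, 7 and 7 in class II-low nuclei. Its estimate of 2.16 ± 0.63 missed the threshold (edgeR adjusted p = 0.0634), and in injured-father library 1 its level was lower in the members.

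The remaining class II genes gave values without a call. Irf8, a transcription factor of antigen-presenting cells, stood at 107, 94.3, 148 and 279 CPM beside 58.0, 65.5, 59.0 and 99.9 CPM in class II-low nuclei, a log2 fold change of 0.96 (edgeR adjusted p = 0.109). H2-DMa, the partner of H2-DMb1, had an estimate of 0.84 from 12 UMIs in all. The costimulatory gene Cd86 went the other way in 3 of 4 libraries, with a log2 fold change of −0.36 (edgeR adjusted p = 0.654). Rfxank, a subunit of the X box factor, had no UMI in the members. How reads shared by the near copies H2-Eb1 and H2-Eb2, or H2-DMb1 and H2-DMb2, were counted is not given here, so their values are uncertain.

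MHC class I genes, which nearly all cells express, gave no call between the classes. Their sum was 1100, 959, 762 and 999 CPM in the members and 1127, 1055, 846 and 1120 CPM in class II-low nuclei, so slightly lower in each library. Of 15 genes, 11 were tested, none passed and the median log2 fold change was −0.01. B2m, the light chain of class I, stood at 199 ± 58.3 CPM in the members and 215 ± 30.3 CPM in class II-low nuclei (SD, n = 4). H2-K1, a class I heavy chain, stood at 149 ± 58.2 and 186 ± 36.1 CPM (SD, n = 4). Nlrc5, the class I counterpart of Ciita, had a log2 fold change of −0.01 ± 0.38 (SE; edgeR adjusted p = 0.999), an error too wide to call it unchanged.

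Ccr2, the receptor that draws monocytes into tissue, was higher in the members. It gave 21, 22, 9 and 3 UMIs in the members and 12, 11, 17 and 2 in class II-low nuclei. In CPM these were 204, 115, 191 and 69.7 against 16.6, 13.4, 21.8 and 3.84, so all member values lay above all class II-low values. The log2 fold change was 3.31 ± 0.40 (SE; edgeR adjusted p = 7.1e-08), and no alternative ended the call. A Ccr2 UMI was seen in 19.5% of members, 1.94% of class II-low nuclei and 0.140% of fibroblast nuclei. After thinning, with the classes of the full counts, these shares were 12.6%, 1.62% and 0.0705%.

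Ccr2 marked a minority of the members, and other monocyte genes were sparse. Members with a Ccr2 UMI numbered 12, 12, 5 and 2, and 14 of the 31 also held a Ciita UMI. A UMI of Lyve1, Timd4, Cd163 or Folr2 was seen in 34 members, 5 members held both kinds, and 99 held neither at this depth. Of 14 monocyte-derived and CCR2 genes, 6 were tested and 2 were higher, with a median of 1.06. The second was Itgal, the integrin CD11a, at 58.4, 89.1, 42.4 and 186 CPM in the members against 22.8 ± 6.15 CPM (SD, n = 4), with a log2 fold change of 1.81 (edgeR adjusted p = 0.0129, higher in 4 of 4 libraries). The Itgal call was lost without injured-father library 2 (adjusted p = 0.299) or uninjured-father library 2 (0.185). Cx3cr1, the fractalkine receptor, had an estimate of 0.55 (adjusted p = 0.277), Chil3 had no UMI in the members, and Ly6c2 had 0, 4, 0 and 0.

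Among the other genes that were higher, several encode proteins of the cell surface. Alcam, the adhesion molecule CD166, stood at 827, 828, 1927 and 1139 CPM in the members against 377, 357, 332 and 244 CPM. Its log2 fold change was 1.69 ± 0.17 (SE; edgeR adjusted p = 6.8e-10), with the highest value in uninjured-father library 1 and no overlap between the classes. Cadm1, another adhesion molecule, stood at 825 ± 199 against 327 ± 85.6 CPM (SD, n = 4; log2 1.301 ± 0.16). Tgfbr1, the type I receptor for TGF-β, stood at 886, 1163, 1355 and 1023 CPM against 559, 549, 459 and 536 CPM, a log2 fold change of 1.02 ± 0.15 (edgeR adjusted p = 8.1e-06). Its partner Tgfbr2 had an estimate of −0.47 that missed the threshold (adjusted p = 0.331). Ptprc, the leukocyte antigen CD45, stood at 1067 ± 262 against 568 ± 46.6 CPM (SD, n = 4; log2 0.84 ± 0.15; adjusted p = 0.000307).

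The other genes named in that direction are less tied to a known macrophage role. Ipcef1 stood at 189 ± 34.5 against 33.2 ± 4.49 CPM, Plbd1 at 179 ± 61.5 against 23.3 ± 13.3 CPM and Niban1 at 1045 ± 217 against 494 ± 90.3 CPM (SD, n = 4). Grap2, an adaptor of lymphocyte and myeloid signalling, stood at 114 ± 42.3 against 14.01 ± 6.73 CPM (SD, n = 4) and at 298 CPM in B lymphocyte nuclei. Adgrl3, a latrophilin receptor, had a log2 fold change of 1.16. Celf4 (1.74), Hlcs (1.13) and Plxdc2 (0.77) were also higher in 4 of 4 libraries, but each call rested on 1 library. Celf4 was lost without injured-father library 1 (edgeR adjusted p = 0.115), and Hlcs (0.129) and Plxdc2 (0.0512) without injured-father library 2.

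**Figure D2:**
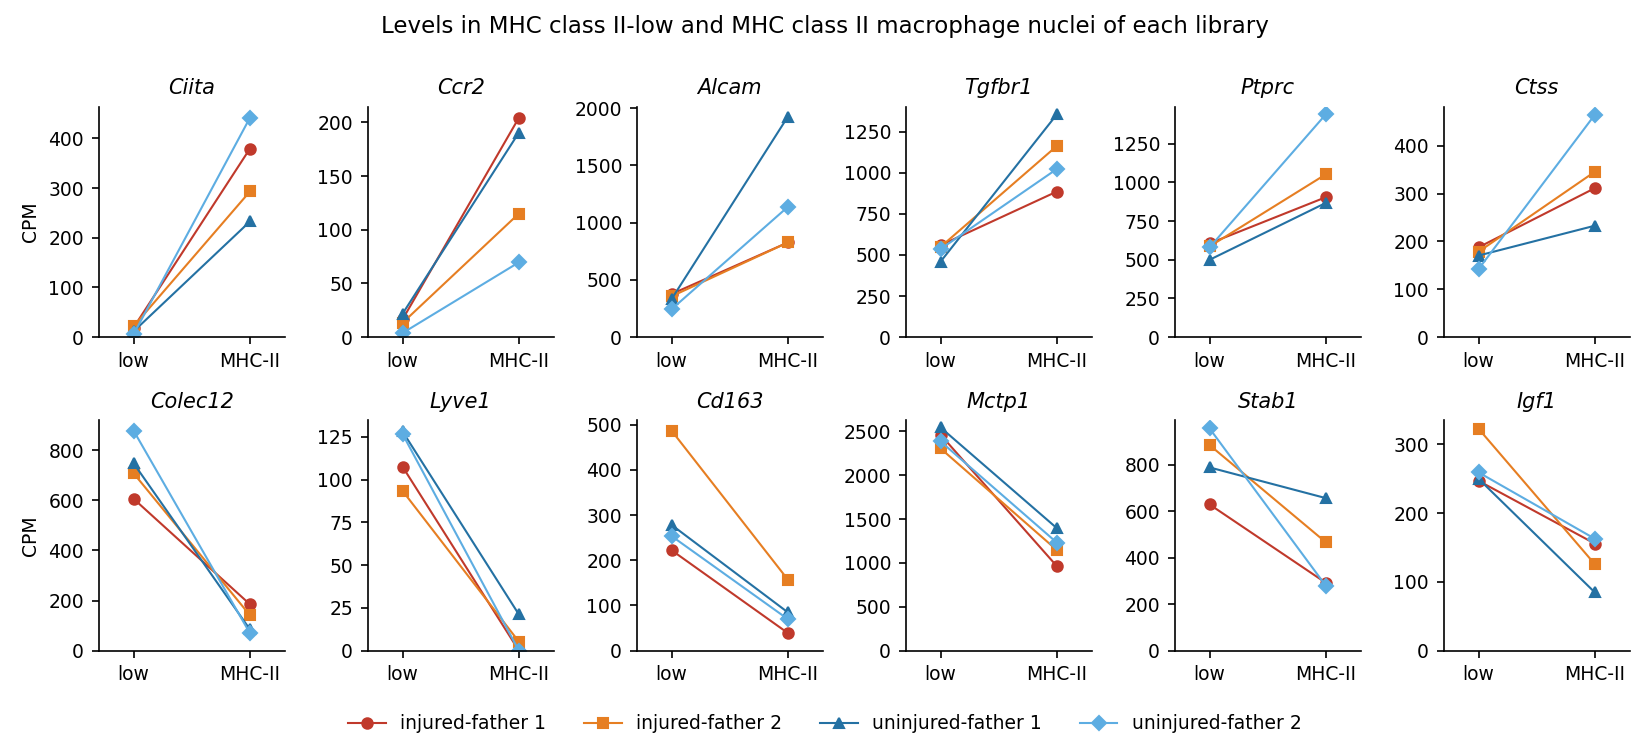
Levels in CPM (y axis, from 0) of 12 genes in class II-low and class II macrophage nuclei, with a line for each library. Ciita, Ccr2, Alcam, Tgfbr1, Ptprc and Ctss rise along every line, and Colec12, Lyve1, Cd163, Mctp1, Stab1 and Igf1 fall along every line.

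Genes of resident macrophages were lower in the members. Of 16 such genes, 14 were tested, 8 were lower and none higher, 13 of 14 estimates were negative and the median log2 fold change was −1.03 beside −0.03 over all genes. Lyve1, a hyaluronan receptor of resident macrophages along vessels, gave 0, 1, 1 and 0 UMIs in the members and 78, 77, 100 and 66 in class II-low nuclei. Its summed level was 21.6 times higher in class II-low nuclei, with a counting interval of 5.94 to 179 times (edgeR adjusted p = 3.7e-06). A Lyve1 UMI was seen in 1.26% of members, 14.6% of class II-low nuclei and 2.93% of B lymphocyte nuclei. Cd163, the haemoglobin scavenger receptor, gave 4, 30, 4 and 3 UMIs in the members against 161, 401, 217 and 132, at 87.6 ± 50.1 and 310 ± 120 CPM (SD, n = 4). Its log2 fold change was −1.83 ± 0.26 (SE; edgeR adjusted p = 3.0e-06). Thinned to 1000 UMIs, with the classes chosen again, the log2 fold changes kept their sign without passing, at −3.25 for Lyve1 (adjusted p = 0.186) and −0.93 for Cd163 (0.479).

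Some scavenger genes followed the same direction, and Colec12 and Stab1 among them also stand on the list of resident genes above. Colec12, a collectin scavenger receptor, stood at 185, 141, 84.7 and 69.7 CPM in the members against 606, 708, 748 and 878 CPM. The classes did not overlap, and the log2 fold change was −2.41 ± 0.22 (SE; edgeR adjusted p = 3.6e-11) with the call kept in all alternatives run. Stab1, a receptor that clears oxidised lipoproteins and cell debris, stood at 423 ± 177 against 815 ± 142 CPM (SD, n = 4; log2 −0.98 ± 0.18). Of 12 genes listed for endocytosis and scavenger receptors, 10 were tested and 3 were lower. These were Colec12, the clathrin adaptor Dab2 and the Notch effector Rbpj, which is not itself a receptor. Dab2 (log2 −0.78) and Rbpj (−0.66) lost the call without injured-father library 1, at adjusted p = 0.0742 and 0.0576. Cd36, Msr1 and the rest of that list did not pass, and the median was −0.32.

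Other genes lower in the members include secreted and transport proteins of resident cells. Igf1, a growth factor that macrophages supply to cardiac tissue, stood at 156, 126, 84.7 and 163 CPM in the members against 247, 323, 250 and 259 CPM (log2 −1.09; edgeR adjusted p = 0.00717). Gas6, the bridging ligand of MERTK, stood at 102 ± 29.7 against 237 ± 32.3 CPM (SD, n = 4; log2 −1.18; adjusted p = 0.00762). Slc40a1, the iron exporter ferroportin, gave 1, 5, 2 and 4 UMIs in the members (log2 −2.04; adjusted p = 0.00182). Without injured-father library 2 these calls were lost, with adjusted p = 0.353 for Igf1, 0.315 for Gas6 and 0.509 for Slc40a1, and Gas6 was also lost without uninjured-father library 2 (0.0596). The resident markers Folr2 and Cbr2 passed narrowly (adjusted p = 0.0431 and 0.0329) on 5 and 7 UMIs in the members. Folr2 was lost on leaving out any library (0.119, 0.542, 0.159 and 0.0911), and Cbr2 was lost without injured-father library 1 (0.221), injured-father library 2 (0.359) or uninjured-father library 2 (0.111).

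Some resident genes did not pass. Timd4, a phosphatidylserine receptor of self-renewing macrophages, stood at 38.9, 10.5, 148 and 46.5 CPM in the members against 96.6, 72.8, 75.7 and 84.5 CPM. Its value in uninjured-father library 1 exceeded all class II-low values, and the estimate of −0.94 missed the threshold (edgeR adjusted p = 0.449). Mertk (log2 −0.17) and the transcription factor Maf (−0.32) did not pass either.

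The remaining genes named as lower have no single role. Mctp1, a calcium-binding membrane protein, stood at 1185 ± 181 against 2426 ± 102 CPM (SD, n = 4; log2 −1.09 ± 0.13; edgeR adjusted p = 7.0e-08), and Slc9a9, an endosomal sodium-proton exchanger, at 1809 ± 304 against 3111 ± 99.6 CPM. Plekhg5 (log2 −1.60), Wwp1 (−1.05), Psd3 (−0.63) and Csmd1 (−3.33, from 7 UMIs in the members) were lower in 4 of 4 libraries, and no left-out library ended these calls. Eln, which encodes elastin, stood at 354 CPM in B lymphocyte and 497 CPM in fibroblast nuclei and at 87.6 ± 43.7 against 278 ± 92.2 CPM here (SD, n = 4; log2 −1.53). The Eln call was lost without injured-father library 2 (edgeR adjusted p = 0.0904) and without doublets (0.103). Mfsd6, at 3 UMIs in all members, was 9.03 times higher in class II-low nuclei with a counting interval of 3.05 to 44.1 times, and was lost without injured-father library 2 (adjusted p = 0.166).

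Several other functions of macrophages showed no call. None of 9 tested complement genes, 11 of Toll-like receptors and NF-κB, 8 of the interferon response, 12 of lipid-associated and injury macrophages, 14 of Fc receptors and C-type lectins, or 15 of the cell cycle passed, and their medians lay between −0.19 and 0.34. Lists with calls from genes already named were cytokine and chemokine receptors (21 tested, 2 higher: Ccr2 and Tgfbr1) and iron handling (8 tested, 2 lower: Slc40a1 and Cd163). Of 14 tested efferocytosis genes, Dock2 was higher and Gas6 and Abca1 were lower, with a median of −0.08. Of 16 core macrophage and myeloid genes, all were tested and 3 were higher: Ptprc, Cybb and Dock2. The other estimates of that list leaned lower, since 10 of 16 were negative and the median was −0.12. Cybb, the catalytic subunit of the phagocyte oxidase, had a log2 fold change of 0.95 (edgeR adjusted p = 0.0284), which was lost without injured-father library 1 (0.102), injured-father library 2 (0.363) or uninjured-father library 2 (0.254). Dock2, a regulator of leukocyte migration, had 0.63 (adjusted p = 0.00523), which was lost without injured-father library 2 (0.208) and without nuclei holding dendritic UMIs (0.27). Of 27 cytokines and chemokines, 13 had no UMI in any member, among them Il10, Il6, Il12b, Cxcl9 and Cxcl10, and 9 were tested. The platelet factor Pf4 was the call of that list, at 1, 5, 1 and 1 UMIs in the members (log2 −1.87; adjusted p = 0.0241). It was lost without injured-father library 1 (0.172), injured-father library 2 (0.243) or uninjured-father library 2 (0.077).

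Single genes stood out in 3 further lists. Mmp12, macrophage elastase, gave 0, 5, 3 and 16 UMIs in the members and 0, 0, 15 and 0 in class II-low nuclei, an uneven spread over the hearts. Its call (log2 4.30; edgeR adjusted p = 0.00205) was lost without uninjured-father library 2 (0.527) or injured-father library 2 (0.0686). Klf2 (−2.12), a factor of quiescent leukocytes, was the call among 21 tested transcription factors, and was lost without injured-father library 2 (adjusted p = 0.623). Pdgfc (−1.59) and Abca1 (−0.67) passed at adjusted p = 0.0251 and 0.0353. Pdgfc was lost without injured-father library 1 (0.184), injured-father library 2 (0.651) or uninjured-father library 1 (0.0541). Abca1 was lost on leaving out any library (0.156, 0.328, 0.0654 and 0.187).

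**Figure D3:**
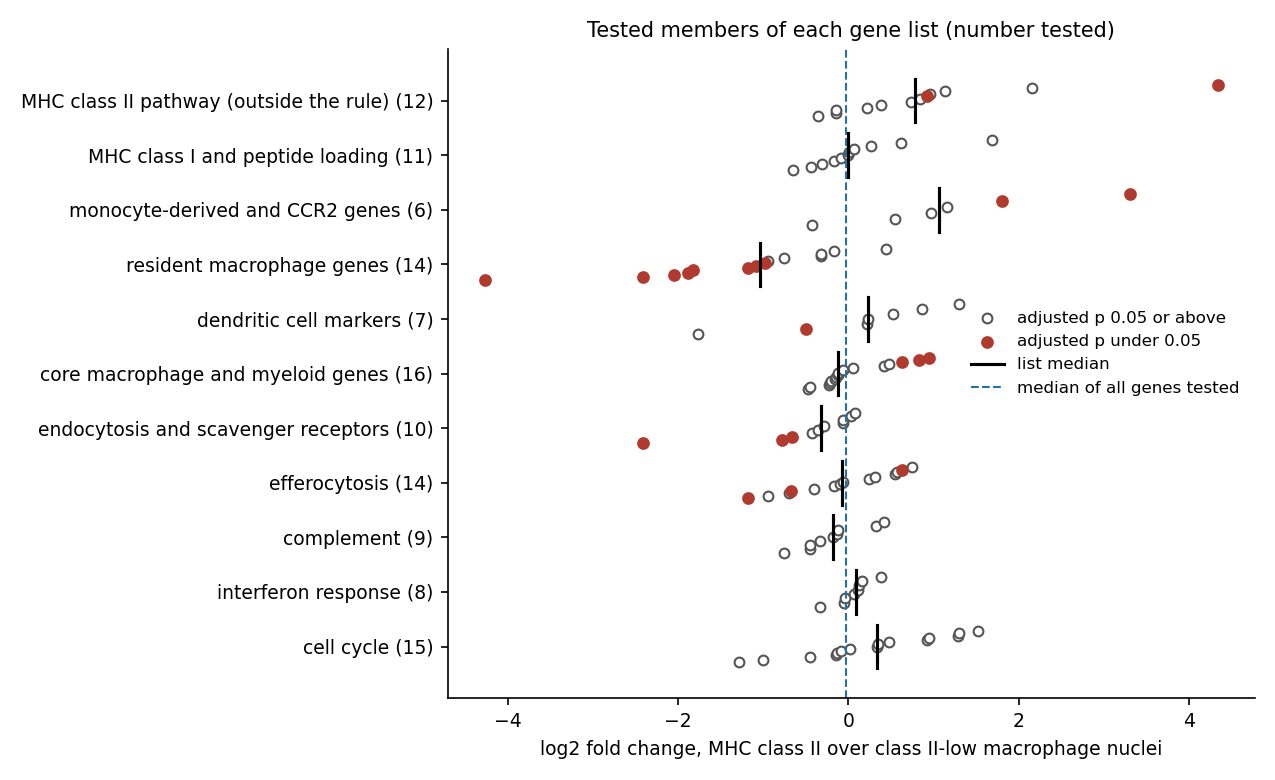
Log2 fold change (x axis) of each tested gene in 11 gene lists, members over class II-low nuclei, filled where the edgeR adjusted p was under 0.05, with the list median as a bar and the median of all 7209 genes as a dashed line. The 8 calls among resident macrophage genes lie left of 0, and the calls among class II pathway and CCR2 genes lie right of it.

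Markers of other cell types were measured in the same sums. The 10 B lymphocyte markers measured, of 12 listed, summed to 2151, 1393, 1101 and 1325 CPM in the members, 1358 to 1763 CPM in class II-low nuclei and 10210 to 11530 CPM in B lymphocyte nuclei. Bank1, on that list, gave a UMI in 49.1% of members and 52.6% of class II-low nuclei, against 3.36% of the deeper fibroblast nuclei. Of 14 T or NK lymphocyte markers 7 were at 0 in the members, of 9 neutrophil markers 7 were at 0, and of 7 mast cell markers 5 were at 0. Fibroblast markers summed to 1596, 1613, 1673 and 2138 CPM beside 1748 to 2525 CPM in class II-low nuclei and 12580 to 14340 CPM in fibroblast nuclei. Cardiomyocyte markers had the largest sum, at 7464, 9471, 10800 and 13360 CPM in the members. Their sum was 7525, 8892, 9243 and 9637 CPM in class II-low nuclei and 4520 to 6825 CPM in fibroblast nuclei. Erythroid markers summed to 720, 1210, 1969 and 1069 CPM in the members beside 799, 1216, 2139 and 872 CPM in class II-low nuclei. No marker list had a higher call, and Dcn and Egfl7, of the fibroblast and endothelial lists, were lower (edgeR adjusted p = 0.0431 and 0.0367). Those 2 calls were each lost on leaving out any library, with adjusted p of 0.129, 0.239, 0.137 and 0.318 for Dcn and 0.184, 0.504, 0.112 and 0.0638 for Egfl7.

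Dendritic genes and possible doublets were also counted. Of 18 dendritic cell markers, 7 were tested, none was higher and Tcf4 was lower (log2 −0.49; edgeR adjusted p = 0.0367). Positive estimates numbered 5 and negative ones 2, with a median log2 fold change of 0.23 beside −0.03 over all genes tested. The Tcf4 call was lost without injured-father library 1 (0.293), injured-father library 2 (0.177) or uninjured-father library 2 (0.255). Zbtb46, a factor of conventional dendritic cells that endothelium also expresses, stood at 136, 73.3, 148 and 232 CPM in the members, 110 ± 14.4 CPM (SD, n = 4) in class II-low nuclei and 74.0 CPM in fibroblast nuclei. Scrublet marked 6, 4, 1 and 3 members as doublets. Without doublets 103 genes differed, and without the nuclei that held 2 or more dendritic UMIs 104 genes did. Ciita, Ccr2, Alcam and Colec12 passed in both cases.

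Within the macrophage nuclei, the summed levels of several genes were ordered by the class II UMI count. The nuclei were divided into those with 0, 1, 2, 3 to 4 and 5 or more class II UMIs, which held 1275, 116, 45, 58 and 56 nuclei. Summed over libraries, Ciita stood at 10.7, 66.9, 165, 331 and 426 CPM along these steps, and Ccr2 at 13.03, 33.4, 48.6, 137 and 210 CPM. Both sums kept this order on leaving out any 1 library, although single libraries departed from it: in uninjured-father library 1 Ciita stood at 303 and then 146 CPM at the last steps, and Ccr2 at 454 and then 97.5 CPM. F13a1, a rule gene, stood at 3592, 2984, 1410, 1301 and 744 CPM in the sums. Its last step rested on uninjured-father library 1, where F13a1 stood at 3218 CPM against 238, 274 and 964 CPM in the other libraries, and was 373 CPM without it. Lyve1 stood at 117, 62.7, 0, 8.08 and 6.36 CPM, and Cd163, without an even order, at 325, 263, 68.1, 170 and 82.6 CPM. Adgre1 (640 to 849 CPM), Csf1r (321 to 412 CPM) and the class I gene H2-K1 (133 to 251 CPM) showed no order along the steps. The bins with members hold 5 to 33 nuclei per library, the steps share libraries, and the values are a description without a test.

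**Figure D4:**
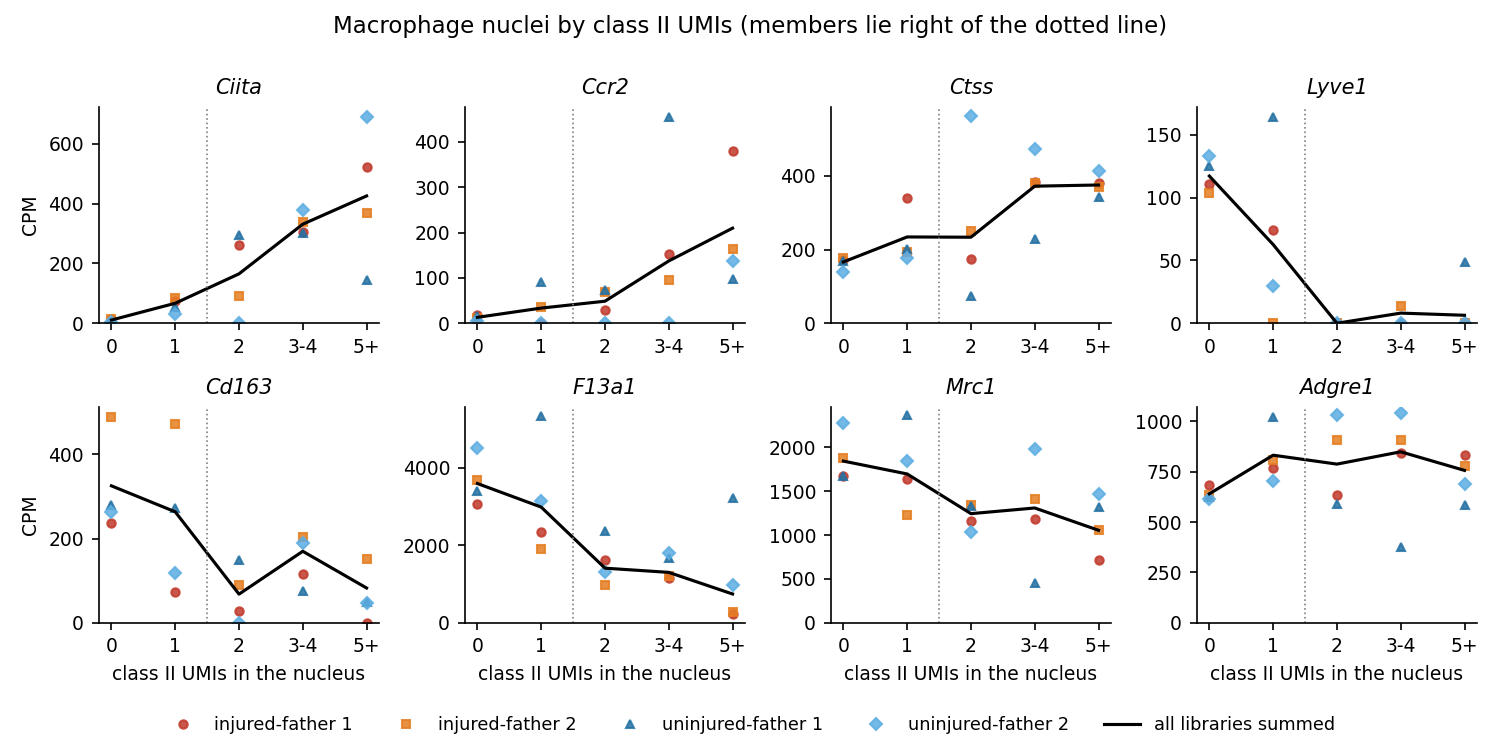
Level in CPM (y axis) of 8 genes in macrophage nuclei by their number of class II UMIs (x axis), for each library (points) and summed over libraries (line), with the members right of the dotted line. At 5 or more class II UMIs the summed levels of Ciita and Ccr2 are highest, at 426 and 210 CPM, that of F13a1 is lowest, at 744 CPM, with uninjured-father library 1 far above the others, and Adgre1 stays between 640 and 849 CPM at all steps.

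Between the fathers, no gene passed in the members. With edgeR's quasi-likelihood test on the 4 member sums, 2054 genes were tested, 0 (0%) were higher and 0 (0%) lower in offspring of injured fathers at an adjusted p under 0.05, with 107 genes at an unadjusted p under 0.05. DESeq2 also called 0, with 29 under 0.05. Leaving out 1 library gave 2 to 9 calls in a fit that assumes the lone library varies like those of the other group. Ciita had a log2 fold change of −0.02 between the fathers, and 7 tested class II pathway genes had a median of −0.38 with none passing. The 4 class II rule genes, as a description, had estimates between −0.58 and −0.08, from which nothing is read, since every member had to hold their UMIs. Among markers of other cell types, 9 of 10 cardiomyocyte, 4 of 4 erythroid and 4 of 4 endothelial genes tested had negative estimates. Their medians were −0.53, −0.76 and −0.47 beside −0.001 over all genes tested, and none passed. By contrast, 2 of 2 B lymphocyte and 3 of 5 fibroblast markers had positive estimates. The part of such RNA in the father comparison was not tested.

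The genes with the smallest unadjusted p whose libraries did not overlap are given as values. Non-overlap served only to pick them, and the share of all tested genes without overlap is not given. Rbms3, an RNA-binding protein, stood at 642, 608, 148 and 186 CPM, a log2 fold change of 1.89 ± 0.40 (SE; edgeR adjusted p = 0.397). Leaving out injured-father library 1 or 2 brought the adjusted p of Rbms3 to 0.0203 and 0.0142. Mdfic stood at 448, 451, 148 and 93.0 CPM (1.87 ± 0.44; adjusted p = 0.544), and passed without injured-father library 2 (0.0436). Entpd1, the ectonucleotidase CD39, stood at 545, 796, 254 and 256 CPM (1.40 ± 0.38; adjusted p = 0.707). In the other direction, Myo1e, a class I myosin, stood at 224, 141, 402 and 628 CPM (−1.54 ± 0.39), and passed without injured-father library 1 (adjusted p = 0.0203). Slc2a3, a glucose transporter, stood at 38.9, 41.9, 233 and 186 CPM (−2.34 ± 0.68), from 4, 8, 11 and 8 UMIs. F13a1 was among the genes tested by father and did not pass. It chose the members, so its values of 934, 801, 2541 and 1255 CPM are not read as a result.

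A pair of genes that earlier results had singled out by father were looked up in the members. Camk1d, a calcium/calmodulin-dependent kinase, stood at 10770, 9533, 7072 and 5485 CPM, with a log2 fold change of 0.69 ± 0.24 (SE; edgeR adjusted p = 0.717). Its levels in class II-low nuclei of the same hearts were 9951, 8538, 5420 and 4905 CPM. Slc15a2, a peptide transporter, gave 3, 9, 0 and 0 UMIs in the members and 23, 24, 1 and 2 in class II-low nuclei, too few in the members to be tested.

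Whether the class difference itself depended on the father was tested over the same 8 sums, and 2 genes of 7209 (0.0277%) passed in the direction of injured fathers and 0 (0%) in the other. These were Rbms3 and Tenm3, a teneurin adhesion protein. Rbms3 stood at 642, 608, 148 and 186 CPM in the members and 540, 569, 851 and 641 CPM in class II-low nuclei, so members lay above class II-low nuclei in both injured-father libraries and below them in both others. The interaction was 2.43 ± 0.40 on the log2 scale (SE; edgeR adjusted p = 0.00704), and was lost without uninjured-father library 1 (adjusted p = 0.173) and in DESeq2 (0.371). Tenm3 stood at 419, 183, 63.5 and 46.5 CPM in the members, from 43, 35, 3 and 2 UMIs, and at 152, 123, 263 and 229 CPM in class II-low nuclei. Its interaction was 3.28 ± 0.59 (SE; edgeR adjusted p = 0.0169), and was lost without injured-father library 1 (0.147) or uninjured-father library 1 (0.103), with 4 or more macrophage UMIs required (0.0728) and in DESeq2.

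Both genes are abundant in fibroblast nuclei, where Rbms3 stood at 3142, 3426, 2996 and 2725 CPM and Tenm3 at 1545, 1264, 1563 and 1275 CPM. The 10 fibroblast markers summed to 1596 and 1613 CPM in the members of the injured-father libraries and 1673 and 2138 CPM in those of the others, and to 1748, 1847, 2328 and 2525 CPM in class II-low nuclei. In the interaction, 7 of 8 tested fibroblast markers had positive estimates with a median of 0.58, beside 0.11 over all genes tested, and none passed, so these markers leaned in the same direction as the 2 genes. Their part in the result was not tested. The number of interaction calls moved between 0 and 20 on leaving out 1 library: it was 20 without injured-father library 2, 17 without uninjured-father library 2 and 0 without uninjured-father library 1.

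**Figure D5:**
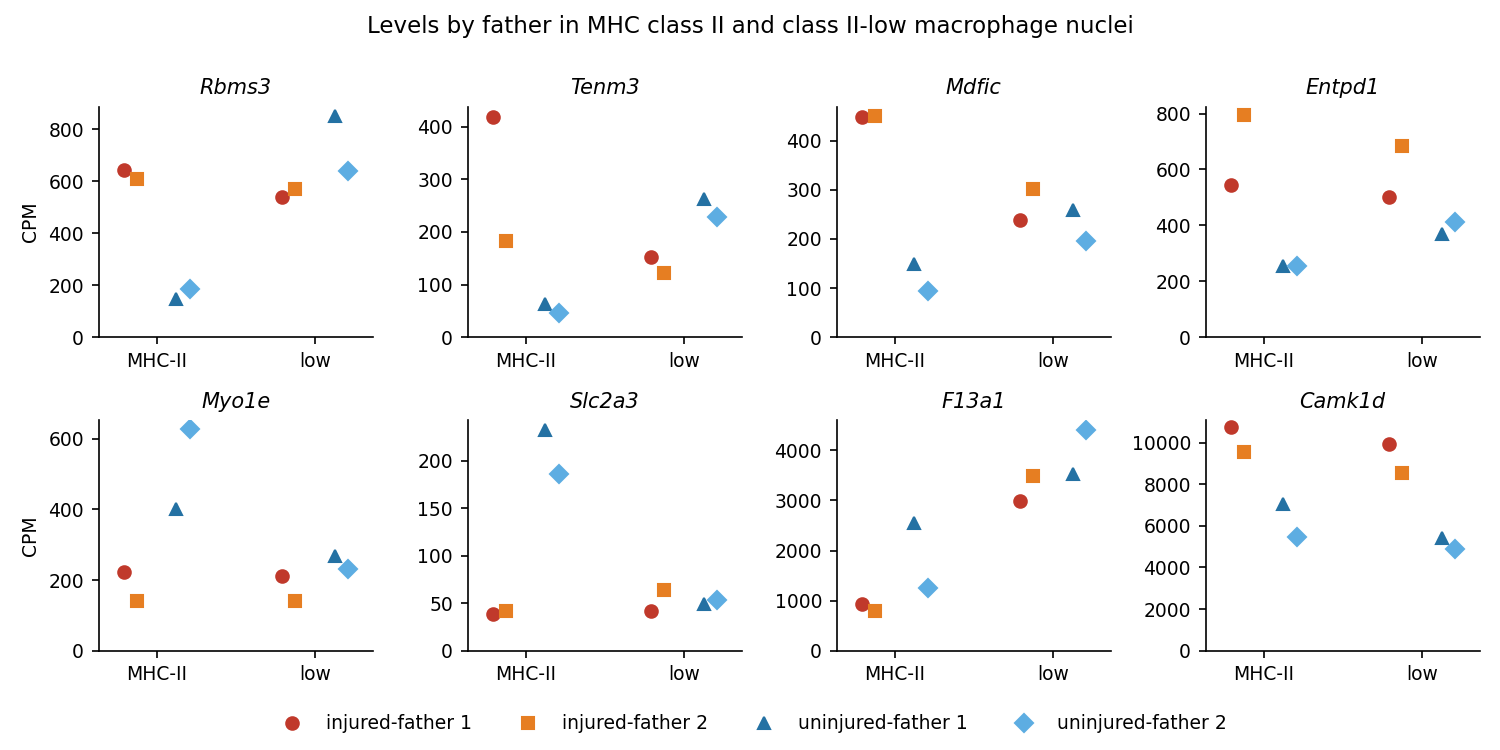
Level in CPM (y axis, from 0) of 8 genes in class II and class II-low macrophage nuclei, with 1 point per library. Rbms3 and Tenm3 separate the fathers in the members and are ordered the other way in class II-low nuclei, while Camk1d lies higher in both injured-father libraries of either class, at 9533 and 10770 CPM in the members.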

How the data were processed

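Raw UMI counts, whole numbers by gene and nucleus, were deposited by the authors, who per the file headers used Cell Ranger 6.0.1. Seurat 4.0 is among the tools in the submitters' processing notes, and the build behind the counts is not given in any source used. Of 21884 feature IDs, 21779 are in GENCODE M21. The members, the gene lists, the tests and the motif letters were chosen with earlier results of these data known.

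UMIs were summed per library and class. Sums were tested with edgeR 4.0.16 (R 4.3.3): TMM scaling, filterByExpr with a minimum count of 10, the quasi-likelihood test, and Benjamini-Hochberg adjustment. Class comparisons had the library as a block, leaving out the 15 rule genes from the adjustment. The father comparison had no block, and rule genes that passed the filter stayed in its adjustment. Standard errors were derived from the log2 fold change and its F statistic. CPM values are unscaled by TMM. The fit was tested on simulated data. DESeq2 1.42.0 and other gates, filters and scalings were alternatives. Scrublet, through scanpy 1.11.5, marked doublets in each library, and they stayed in.

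B lymphocyte nuclei held 3 or more UMIs over Pax5, Bank1, Ralgps2, Cd79a, Cd79b and Ms4a1, and fibroblast nuclei 3 or more of Pdgfra, each with limits on other markers. Named genes were up to 14 per direction with the smallest adjusted p and 1 sign in 4 libraries, leaving out predicted genes and markers of other cell types, and up to 6 of each list, and by father the 3 smallest p values per direction without overlap. Folr2, Timd4, H2-DMa, H2-DMb1 and genes given only for having few or no UMIs were named after their values were seen. Wilson intervals are at 95%, and a count of 0 allows up to 3 counts.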

Additional observations from a re-analysis of the deposited data

Results flagged for a closer look

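The difference between members and class II-low nuclei depended on the father by test for 2 genes. For Rbms3 the difference of differences, injured minus uninjured fathers, was 2.43 on the log2 scale (edgeR adjusted p = 0.00704). Both injured-father libraries had more Rbms3 in the members than in class II-low nuclei (642 against 540 CPM and 608 against 569 CPM), and both uninjured-father libraries had less (148 against 851 CPM and 186 against 641 CPM), from 7 and 8 UMIs in those members. For Tenm3 it was 3.28 (edgeR adjusted p = 0.0169), with 43, 35, 3 and 2 UMIs in the members of the 4 libraries. Fibroblast nuclei held more of both genes than either macrophage class, with means of 3072 CPM for Rbms3 and 1412 CPM for Tenm3. The Rbms3 call was lost in DESeq2, after thinning and without uninjured-father library 1. The Tenm3 call was lost in those cases, without injured-father library 1, and with 4 or more macrophage UMIs required.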

How the results depend on the processing

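No named call changed its direction under the alternatives run, and the share of members did not either. The difference between fathers in the share of all macrophage nuclei, −0.0463 points, turned to 0.0322 points without doublets, 0.102 without nuclei holding dendritic UMIs, and to between −0.293 and 0.200 on leaving out 1 library. For genes that differed between the classes (134), the count was 22 after thinning to 1000 UMIs (4 higher and 18 lower), 39 with DESeq2, 63 with no replicate block, and 29 to 91 on leaving out 1 library. For genes by father in the members (0), it was 2 with 3 or more class II UMIs required (Tmem108 and Myo1e), 2 after thinning (Alcam, and F13a1, which chose the members and is not read as a result, among 241 genes tested), 11 without the low-count filter, and 2 to 9 on leaving out 1 library, F13a1 included without uninjured-father library 2. For genes whose class difference depends on the father (2), it was 21 with 3 or more class II UMIs, 1 with 4 or more macrophage UMIs (Rbms3), 10 without doublets, 8 without nuclei holding dendritic UMIs, 0 after thinning (with DESeq2 also 0), 15 without the low-count filter, and 0 to 20 on leaving out 1 library. Leaving out nuclei with B lineage UMIs, an alternative chosen after seeing the data, gave 4 (Rbms3, Tenm3, Gpc6 and Pcdh9) there and 110 between the classes. Fewer UMIs enter the thinned and left-out fits, the thinned fits also rest on classes chosen again, and the cause of the other shifts was not tested.

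The share of members kept its direction under all alternatives run, with differences of 0.216 to 0.660 points of nuclei that passed and 3.95 to 11.4 points of macrophage nuclei on leaving out 1 library. The replicate number was tried as a block for the father comparison, since both groups carry numbers 1 and 2. Same-numbered libraries did not deviate together (r = −0.0228 over 2054 genes), and the replicate block gave 0 calls. The father comparison rests on 2 hearts per group, with 23 and 20 member nuclei for the uninjured fathers.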
